A study of Mus musculus with 7 samples.

Results

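The accessible chromatin of 10 AP-1 and immediate early genes, Fos, Fosb, Fosl1, Fosl2, Jun, Junb, Jund, Atf3, Egr1 and Ier2, was examined in mouse MuSCs (muscle stem cells). These PAX7-positive cells rest in quiescence along the fibers of adult muscle and rebuild them after injury. The 10 genes were taken by name from 21440 protein-coding mouse genes with a known transcription start site (TSS), and at each locus every peak touching the RefSeq gene span plus 10 kb on both sides was collected. All 10 genes had a promoter peak, defined as a peak within 1 kb of the TSS, in all 7 libraries, against 59.7% of all protein-coding genes (12807 of 21440). Their 10 windows held 41 of the 95163 merged peak regions of the series.

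Each library was an ATAC-seq profile, in which the Tn5 transposase cuts and tags DNA where chromatin is open, made from 5000 freshly sorted MuSCs of male mice aged 5 to 6 weeks. The 4 Nedd4L-cKO libraries came from Nedd4L fl/fl Pax7 cre/+ mice on a C57BL/6 background, in which a floxed exon of the E3 ubiquitin ligase Nedd4L was removed in Pax7-expressing cells and their descendants, myofibers included, from development on. The 3 Nedd4L-WT libraries came from wild-type mice matched for age and sex. Cells were sorted as ITGA7+ and Hoechst+ and as negative for CD31, CD45, CD11b and SCA1. There were as many mice as libraries in each group, although the labels do not tie a library to an animal. No peaks with the same ends and pileup were shared by any pair of libraries.

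The proteins of the FOS and JUN families are leucine-zipper factors that pair into the dimeric activator AP-1, and ATF3 can join JUN proteins in such dimers. FOS proteins pair with JUN proteins, whereas JUN proteins also pair among themselves. The immediate early genes that encode them are switched on by signalling, without new protein synthesis, through MAP kinases, the ELK and SRF factors and CREB. In MuSCs, Fos, Jun, Egr1 and related genes are known to be induced while muscle is dissociated and sorted. All libraries came from freshly sorted cells, so the state in undisturbed muscle cannot be told apart from the response to isolation here.

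Libraries held 14429374 to 20084685 tags after filtering and 69302 to 79158 peaks. Promoters of all 9 MuSC markers checked (among them Pax7, Myf5 and Myod1) had a peak in every library, and promoters of the 5 immune markers had none in any library. Of 4 endothelial markers, Tek and Kdr had a promoter peak in all 7 libraries, whereas Pecam1 and Cdh5 had none. Of 4 fibro-adipogenic markers, Col1a1 had one in all 7 libraries and Dcn in 5, whereas Pdgfra and Ly6a had none. The part of other cell types in the values given here was not tested, and in bulk libraries fewer open cells cannot be told apart from less opening per cell. The deposited name of Nedd4L-WT replicate 3 carried a mark of lane 2, which those of the other 6 libraries did not. The share of broad peaks holding a narrow peak was highest in Nedd4L-WT replicates 1 and 2 (92.5% and 92.8%). It was 84.7% to 87.3% in the other 5 libraries.

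The promoter sequences that lie under these peaks are shown for 5 genes, to set the accessible promoter DNA beside the elements through which genes of this kind are known to respond to signalling. Each runs from 170 bp before to 9 bp after the start given by RefSeq on GRCm38.p6, the assembly of mm10, which counts as position 0. Capitals mark the motifs found by search on both strands. These were the TGACG core of the cAMP-response element (CRE), the GC box GGGCGG and the TATA box TATAAA, and, chosen after the sequences were seen, the elements TGACATCA and TTACCTCA, which are known from the Jun promoter as sites bound by JUN and ATF proteins. The stretches are chr12:85473720-85473899 (plus strand) for Fos, chr4:95052213-95052392 (minus strand) for Jun, chr8:84978739-84978918 (minus strand) for Junb, chr5:32136302-32136481 (plus strand) for Fosl2 and chr1:191183324-191183503 (minus strand) for Atf3.
Fos: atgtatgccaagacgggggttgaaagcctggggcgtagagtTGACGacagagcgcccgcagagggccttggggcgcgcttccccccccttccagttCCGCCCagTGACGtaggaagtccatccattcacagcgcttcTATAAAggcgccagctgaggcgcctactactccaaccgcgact
Jun: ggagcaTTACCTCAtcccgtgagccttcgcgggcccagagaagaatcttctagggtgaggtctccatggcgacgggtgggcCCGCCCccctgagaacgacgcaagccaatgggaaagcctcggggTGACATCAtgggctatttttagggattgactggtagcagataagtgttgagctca
Junb: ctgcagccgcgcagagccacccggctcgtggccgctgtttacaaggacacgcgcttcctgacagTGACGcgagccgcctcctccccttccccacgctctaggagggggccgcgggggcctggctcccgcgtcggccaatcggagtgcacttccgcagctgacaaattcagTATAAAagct
Fosl2: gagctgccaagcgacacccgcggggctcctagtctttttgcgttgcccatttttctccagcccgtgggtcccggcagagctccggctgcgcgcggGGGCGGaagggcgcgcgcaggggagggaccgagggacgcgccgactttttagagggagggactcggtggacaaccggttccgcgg
Atf3: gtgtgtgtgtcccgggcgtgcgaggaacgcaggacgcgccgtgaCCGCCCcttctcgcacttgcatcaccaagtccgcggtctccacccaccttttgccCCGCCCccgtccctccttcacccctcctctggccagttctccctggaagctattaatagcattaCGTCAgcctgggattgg

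The RefSeq promoter table matched 7 of the 10 genes (Fos, Fosb, Fosl2, Jun, Junb, Jund and Atf3) with windows of 300 bp. For 6 of them the whole window lay inside the promoter peak in all 7 libraries. The exception was Jund, whose peak began 538 to 574 bp downstream of the annotated start in every library, so that no peak reached its window. The counts below keep this window, and whether the annotated start is the one used in these cells was not tested. The TGACG core was found in 4 of the 7 windows, against 20.8% of 32817 mouse promoter windows. It occurred in Fos from -129 and from -66, in Fosb from -60, in Junb from -106 and in Atf3, as CGTCA, from -7. GC boxes were found in 5 of the 7 (35.6% of all windows) and TATA boxes in Fos from -33 and in Junb from 0 (13.6% of all windows). The Junb match begins at the annotated start itself, whose use in these cells was not tested either. TGACATCA was found in Jun from -45 (3.62% of all windows) and TTACCTCA in Jun from -164 (0.890%). The full AP-1 motif TGANTCA (7.81% of all windows), the full CRE TGACGTCA (1.79%), which would also hold the core, and the CArG box bound by SRF (1.63%) were found in 0 of the 7 windows, which says only that these letters are not in 300 bp. The windows of the 7 genes had a median GC content of 64.7%, against 52.7% over all promoters. The Jund window, which lies outside its peak, was the exception with 46.7%.

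Most promoter peaks of these genes combined very high signal with low enrichment over the local background. Pileup, the mean coverage of extended tags over a peak, was placed among all peaks of the same library as a percentile (the lowest peak at 0, the highest at 100), since raw pileup is not scaled to depth. Fold enrichment, the ratio of pileup to the local background, was placed in the same way. The local background is the higher of the genome-wide level and the level in the surrounding 10 kb. Without a control, that level counts the tags of the peak itself, so a tall and wide peak raises its own background. The values of the local background were computed from pileup and fold, so they are not a separate measurement. At Jun, whose window held a single peak, the local background was 25.1 to 31.7 over the 7 libraries. How much of the background came from the peaks themselves was not tested. The median gene of the 10 lay at percentile 99.8 by pileup, 99.8 by local background, 93.3 by peak length and 7.01 by fold, each as the median of 7 libraries. Over the 12807 promoters with a peak in all 7 libraries the corresponding medians were 86.6, 80.5, 81.3 and 79.3. A pileup at or above the 95th percentile was found in 9 of 10 genes (20.9% of all promoters), and a fold at or below the 10th in 7 of 10 (3.51%). Both held for Fos, Fosl2, Jun, Junb, Jund, Egr1 and Ier2, which is 7 of 10, against 109 of 12807 promoters (0.851%). These limits were chosen after the values were seen and the counts are a description without a test.

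**Figure D1:**
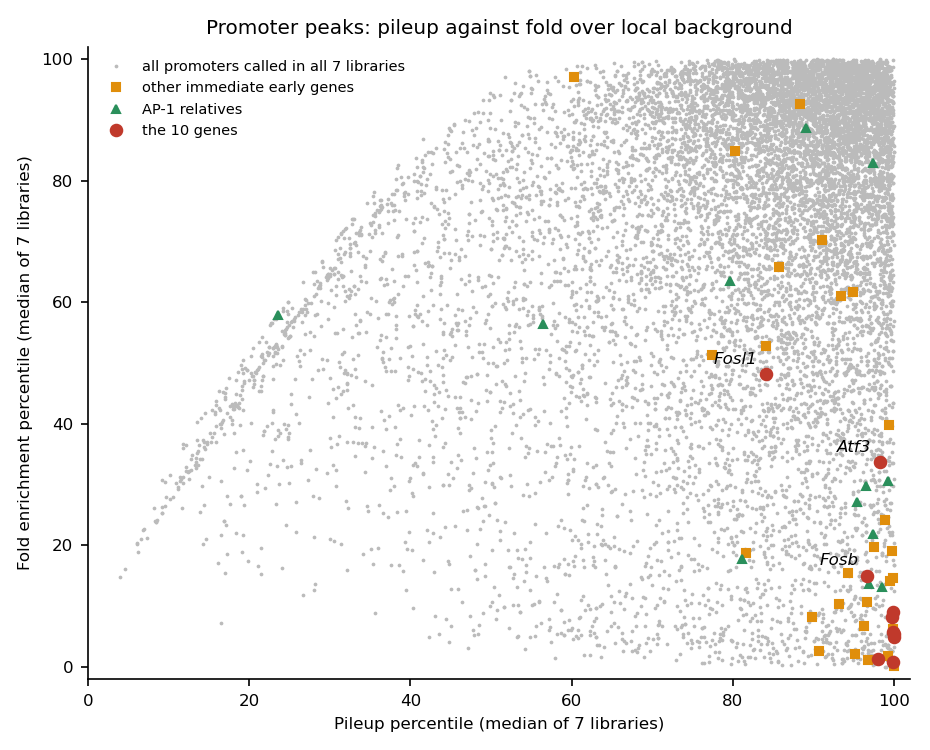
Median percentile over 7 libraries of the promoter peak by pileup (x axis, 0 to 100) and by fold enrichment over the local background (y axis, 0 to 100). Gray points are all 12807 promoters called in all 7 libraries, red circles the 10 genes, orange squares other immediate early genes and green triangles AP-1 relatives. Red circles gather at the lower right, with Fosl1 at 84.1 by pileup and 48.1 by fold and Atf3 at 98.2 and 33.6 apart from the rest.

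By pileup, the order of the medians was Fosl2 (99.95), Egr1 (99.95), Junb (99.91), Fos (99.87), Jund (99.84), Jun (99.80), Atf3 (98.2), Ier2 (98.1), Fosb (96.6) and Fosl1 (84.1). Each of the first 6 overlapped its neighbor over the 7 libraries, and so did Atf3 with Ier2 and Ier2 with Fosb. Jun lay above Atf3, and Fosb above Fosl1, in all libraries. By fold, Fosl1 was highest (48.1), followed by Atf3 (33.6) and Fosb (15.0), without overlap between these. Fos (9.09), Jun (8.25), Jund (5.78), Egr1 (5.42) and Fosl2 (4.86) overlapped in turn, as did Fosb with Fos, and Ier2 (1.25) and Junb (0.739) lay lowest.

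**Figure D2:**
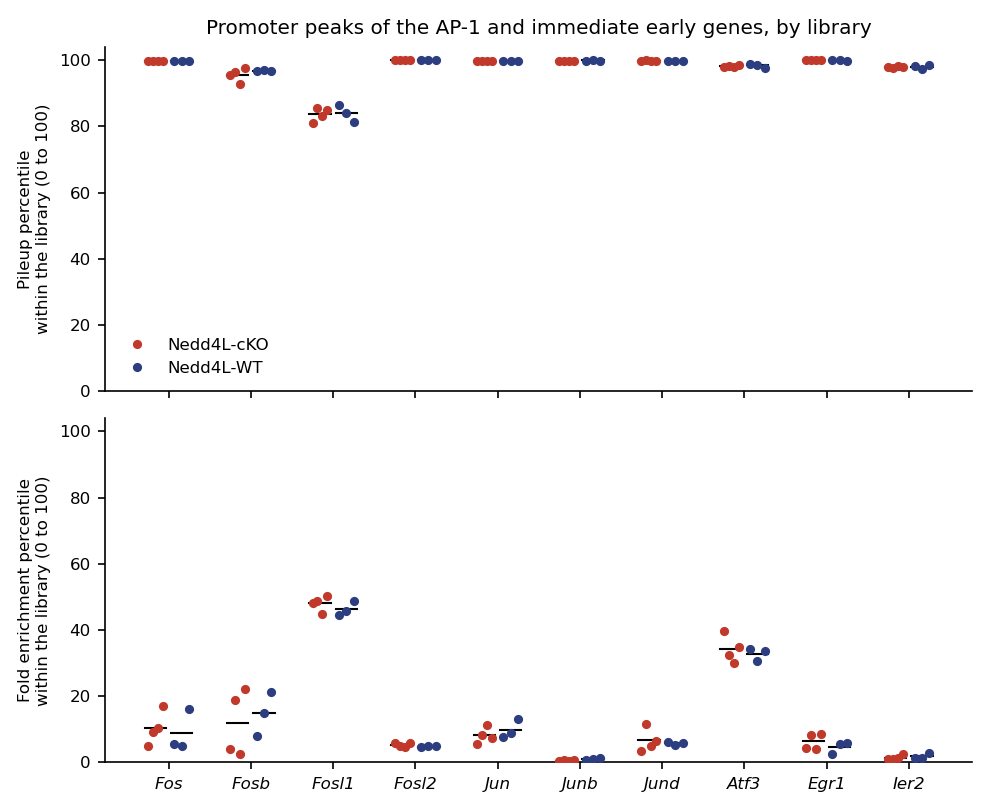
Percentile of the promoter peak among all peaks of its library by pileup (top) and by fold enrichment (bottom), for 4 Nedd4L-cKO (red) and 3 Nedd4L-WT (blue) libraries, each point 1 library and each bar the group mean. Pileup sits above 97 for 8 genes in all libraries, and the colors are intermixed in both panels.

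Fos encodes the prototype FOS partner of AP-1 and spans chr12:85473890-85477274. Its promoter peak reached a pileup of 85.8, 70.5, 80.9 and 88.9 in Nedd4L-cKO replicates 1 to 4 and of 85.3, 78.2 and 75.6 in Nedd4L-WT replicates 1 to 3. The median pileup of all peaks was 13.7 to 16.9 per library. Its fold percentiles were 5.10, 9.09, 10.5 and 16.9 in Nedd4L-cKO and 5.71, 4.94 and 16.2 in Nedd4L-WT. The genotypes overlapped in both measures, and Nedd4L-cKO replicate 4 and Nedd4L-WT replicate 3 were the highest of their groups by fold. The difference in fold rank, Nedd4L-cKO minus Nedd4L-WT, was 0.11 (SE 0.204) in normal-score units, in which 1 unit is 1 SD of the ranks of a library.

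The Fos locus had 5 peaks in each of the 7 libraries, and all 5 of its merged regions were called in all of them. Upstream of the gene there was a region 6.35 to 5.55 kb before the TSS (median fold percentile 13.7, pileup 78.0) and another 2.02 to 1.24 kb before it (2.62 and 98.5). Downstream, a region of 2158 bp at 4.06 to 6.21 kb lay at 0.105 by fold and 91.6 by pileup. The region with the highest fold lay 11.7 to 14.2 kb from the TSS, beyond the 3' end, at 49.1 by fold and 95.5 by pileup. The order of these regions by fold therefore differed from their order by pileup, where the promoter came first.

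Fosb encodes a second FOS protein and spans chr7:19302696-19310118. Its promoter peak had a pileup of 52.9, 50.8, 46.4 and 65.2 in Nedd4L-cKO and of 57.2, 57.8 and 52.2 in Nedd4L-WT. It was the shortest of the 10, with 612 to 666 bp in 5 libraries, 1088 bp in Nedd4L-WT replicate 1 and 3397 bp in Nedd4L-cKO replicate 3. In Nedd4L-cKO replicate 3 the promoter peak ran on into a peak that starts inside the gene and that was called separately in the other 6 libraries. The highest fold of any region at the 10 loci outside a promoter, apart from one at Jund, lay 11.6 to 9.18 kb upstream of Fosb, at 74.2 by fold and 99.8 by pileup. A region 7.06 to 6.64 kb upstream was called in 2 Nedd4L-cKO and 3 Nedd4L-WT libraries, and one 13.9 to 14.3 kb downstream in 1 library of each genotype.

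Fosl1 and Fosl2 encode FRA-1 and FRA-2, FOS relatives that lack the strong activation domain of FOS. Fosl1 (chr19:5447698-5455938) had the lowest promoter pileup of the 10, with 32.2, 34.5, 34.6 and 41.4 in Nedd4L-cKO and 40.1, 37.3 and 30.8 in Nedd4L-WT. Its fold percentiles of 44.98 to 50.3 in Nedd4L-cKO and 44.7 to 48.9 in Nedd4L-WT lay near the middle of each library. No distal region was called in all libraries at Fosl1, and the further regions called in all 7 there covered the promoters of the neighboring genes Ccdc85b and Fibp. Fosl2 (chr5:32136472-32157840) stood at the other end, with a promoter pileup of 90.1, 81.6, 86.8 and 98.2 in Nedd4L-cKO and 87.6, 88.5 and 81.4 in Nedd4L-WT. Fosl2 had the most merged regions (9), with 3 found in every library and 6 in some. One of these 3 lay 3.495 to 2.42 kb upstream, at 0.0745 by fold and 95.5 by pileup, and the other distal one 18.4 to 19.5 kb inside the gene, at 1.49 by fold and 61.8 by pileup. A short region 3.06 to 3.44 kb inside the gene was called in 1 of 4 Nedd4L-cKO and 3 of 3 Nedd4L-WT libraries, at percentiles of 0 to 0.0569 by fold, which is the bottom of the list of calls. The Nedd4L-cKO library with this call was replicate 4, so that without it the region separated the genotypes.

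Jun encodes c-JUN and spans chr4:95049036-95052222. Its window held a single peak in each library, the one over the promoter. The pileup of that peak was 79.8, 75.2, 76.2 and 82.1 in Nedd4L-cKO and 81.3, 79.4 and 74.4 in Nedd4L-WT, with overlap between the genotypes. Its length was 2619, 2482, 2595 and 3922 bp in Nedd4L-cKO and 2472, 2356 and 2458 bp in Nedd4L-WT. All 4 Nedd4L-cKO peaks were longer than all 3 Nedd4L-WT peaks, also without Nedd4L-cKO replicate 4, although the distance between the groups was only 10 bp.

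Junb, which encodes a JUN protein that often restrains proliferation, spans chr8:84976909-84978748. Its promoter peak had a pileup of 86.1, 76.4, 78.2 and 88.5 in Nedd4L-cKO and 84.7, 89.0 and 79.1 in Nedd4L-WT. The local background around it was 34.0 to 43.6, where the median peak of a library had 2.76 to 3.68. Its fold percentiles of 0.346, 0.766, 0.438 and 0.739 in Nedd4L-cKO and 0.623, 1.06 and 1.48 in Nedd4L-WT were the lowest of the 10 genes. This peak thus ranked among the highest of each library by signal and among the lowest by fold. Its length was 5896, 2516, 2734 and 2836 bp in Nedd4L-cKO and 2494, 2438 and 2499 bp in Nedd4L-WT. In Nedd4L-cKO replicate 1 it was joined to a second peak downstream of the gene, which the other 6 libraries had as a peak of its own. A distal region 7.79 to 6.44 kb upstream lay at 17.2 by fold and 97.8 by pileup. Peaks covered a median of 31.4% of the Junb window, the largest share among the 10 loci.

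Jund, the JUN gene that is expressed most steadily in resting cells, spans chr8:70697739-70700616. Its peak, within the gene, had a pileup of 78.8, 81.95, 74.2 and 87.3 in Nedd4L-cKO and 82.5, 78.1 and 75.5 in Nedd4L-WT. Its length was 1796 to 1889 bp in Nedd4L-cKO and 1821 to 1855 bp in Nedd4L-WT, the narrowest range of the 10 after Fosl2. All 5 regions of the locus were called in all libraries. The region with the highest fold of the 10 loci lay 10.4 to 9.16 kb upstream of Jund, at 78.0 by fold and 86.0 by pileup. By contrast, a region 4.69 to 5.55 kb downstream of the TSS lay at 0.374 by fold and 98.1 by pileup.

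Atf3 encodes a stress-induced leucine-zipper factor and spans chr1:191170296-191183333. Its promoter peak had a pileup of 59.9, 57.1, 58.5 and 69.6 in Nedd4L-cKO and 67.5, 65.1 and 55.9 in Nedd4L-WT, and fold percentiles of 30.1 to 39.7 and 30.7 to 34.3. Peaks covered a median of 6.70% of its window, the smallest share of the 10. The only distal region called in all 7 libraries lay 7.097 to 6.39 kb upstream, at 4.64 by fold and 54.8 by pileup.

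Egr1 and Ier2 do not encode leucine-zipper proteins. Egr1, on chromosome 18, encodes a zinc-finger activator induced through SRF and ELK. Its promoter pileup was 93.5, 81.7, 84.7 and 94.4 in Nedd4L-cKO and 92.9, 87.7 and 79.1 in Nedd4L-WT, overlapping the values at Fosl2. Its peak length of 1846, 1826, 1862 and 1886 bp in Nedd4L-cKO lay below the 1890, 1963 and 1968 bp of Nedd4L-WT, again with a narrow distance between the groups. A second region of 3076 bp, 3.86 to 6.94 kb from the TSS and beyond the 3' end, was called in all libraries at 0.591 by fold and 99.4 by pileup. Ier2, a small nuclear protein gene at chr8:84661331-84662852, had a promoter pileup of 60.8, 54.9, 61.1 and 67.0 in Nedd4L-cKO and 62.7, 58.4 and 60.0 in Nedd4L-WT. Its peak length fell into a short and a long form. It was 1649, 1509 and 1652 bp in Nedd4L-cKO replicates 1 to 3 and 1499 bp in Nedd4L-WT replicate 3, and 3815 to 3925 bp in the other 3 libraries. In these 3 libraries the promoter peak was joined to an upstream peak that the other 4 had separately. They also had the 3 highest shares of broad peaks holding a narrow peak (87.3%, 92.5% and 92.8%), the part of which was not tested. Merging over libraries placed the upstream peak of Ier2 in its promoter region. The single distal merged region of Ier2, 5.57 to 6.598 kb from the TSS, was called in all libraries at 12.4 by fold and 85.6 by pileup.

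**Figure D3:**
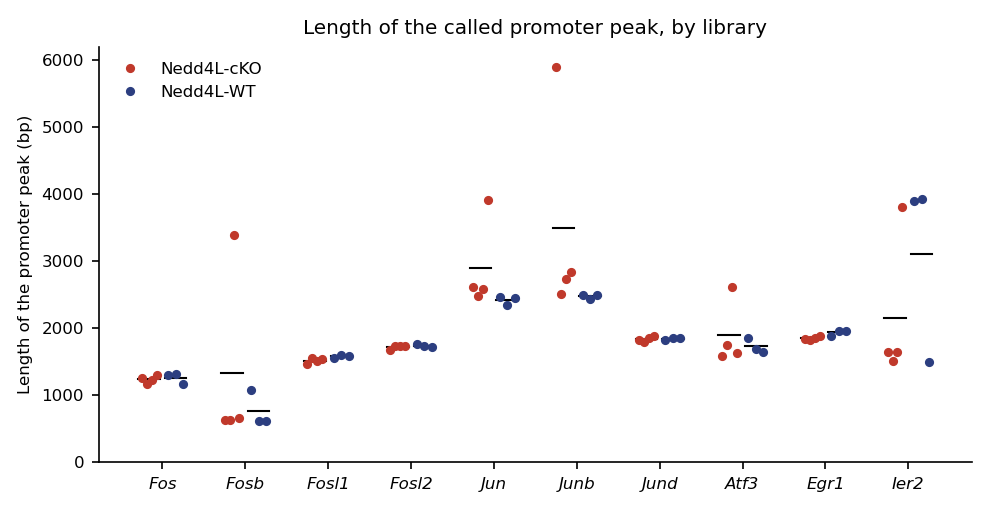
Length of the called promoter peak in bp for 4 Nedd4L-cKO (red) and 3 Nedd4L-WT (blue) libraries, each point 1 library and each bar the group mean. Single long peaks stand out at Fosb (3397 bp), Jun (3922 bp), Junb (5896 bp) and Atf3 (2618 bp), and Ier2 shows a long form in 3 libraries of both genotypes.

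**Figure D4:**
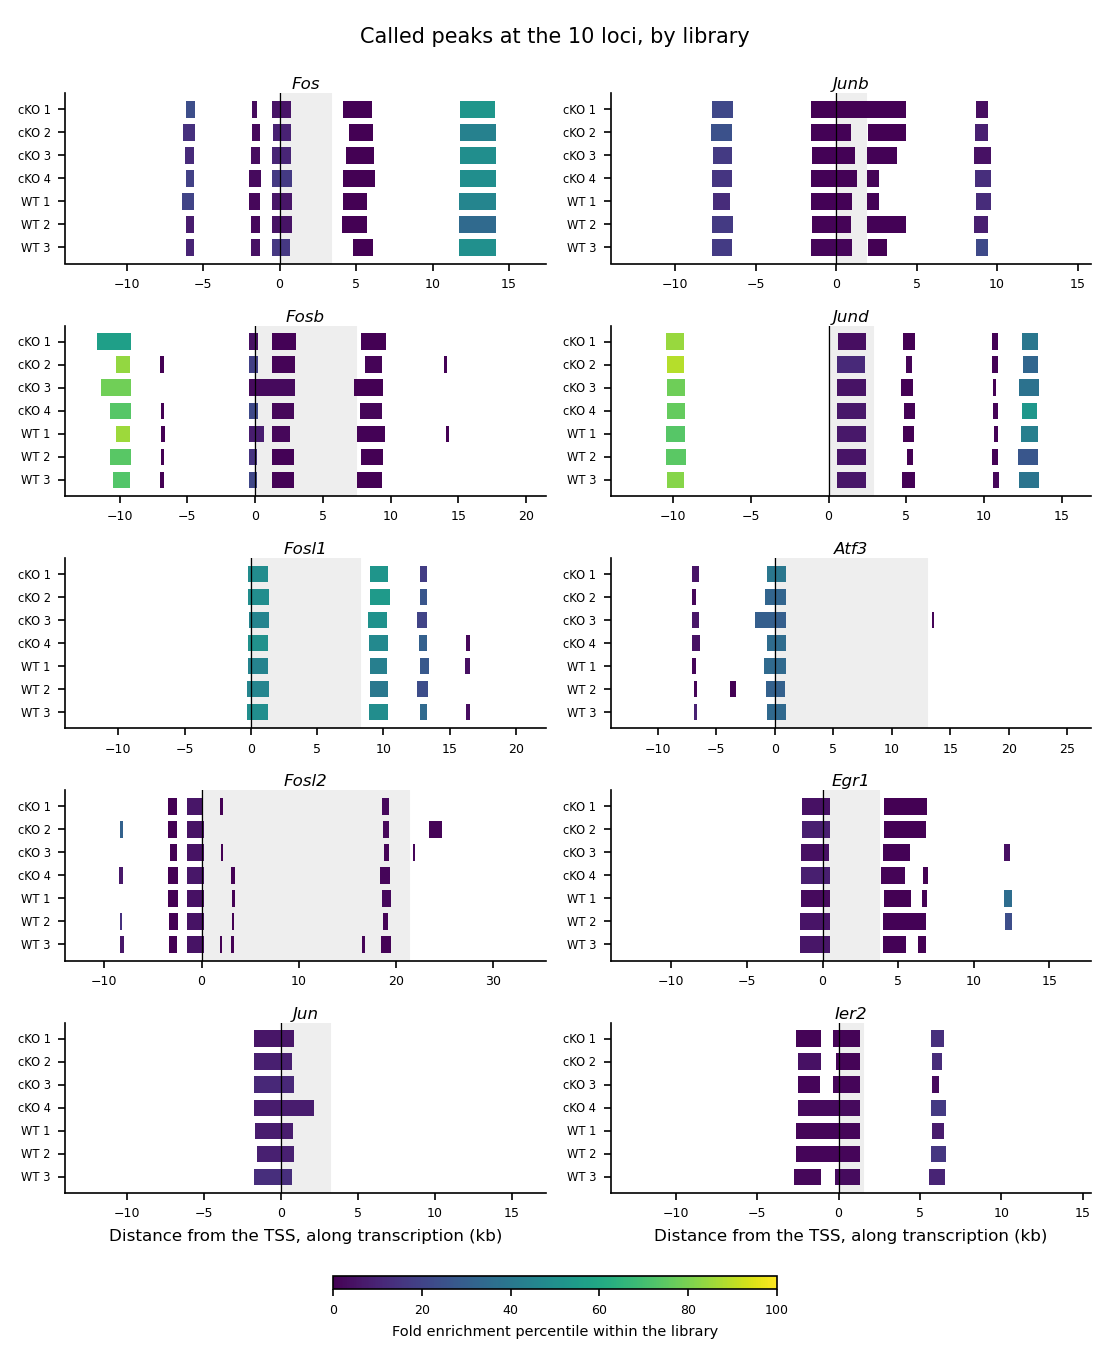
Called peaks as bars at each locus, by distance from the TSS in kb along the direction of transcription, with 1 row per library (4 cKO, 3 WT) and the gene span in gray. Colors give the fold enrichment percentile within the library, which is low at most promoters and higher at the outermost upstream regions of Fosb and Jund and the outermost downstream region of Fos, and joined peaks appear as long bars at Fosb, Junb and Ier2.

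Over the 10 loci, 29 of 41 merged regions (70.7%) were called in all 7 libraries, against 56% of all merged regions of the series. Of the 41 regions, 10 were the promoters and 3 covered the promoters of neighboring genes, and all of these were called in all 7 libraries. The other 28 were distal, and 16 of the 28 were called in all 7, so the share of 70.7% depends on the promoters. At Fosb, Junb and Ier2, merging over libraries joined the promoter peak to a neighboring peak outside the promoter window. Those neighboring peaks are not counted among the 28. The 16 distal regions called in all 7 libraries had a median percentile of 3.63 by fold and 93.3 by pileup, against 56.9 and 53.4 for all 41439 such regions of the series. A fold at or below the 10th percentile was found in 9 of the 16 (5.21% of all), and a pileup at or above the 95th in 7 of the 16 (2.97% of all). Both limits were met by 4 of the 16, at Fos, Fosl2, Jund and Egr1, against 196 of the 41439 (0.473%). The other 3 with high pileup, at Fos, Fosb and Junb, had folds of 49.1, 74.2 and 17.2.

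The comparison of Nedd4L-cKO with Nedd4L-WT asked whether loss of the ligase changed accessibility at these loci. With limma and Benjamini-Hochberg adjustment over all features, 0 of the 10 promoters passed an adjusted p of 0.05 by fold rank, pileup rank or peak length, 0 of the 10 loci by covered length and 0 of their 29 regions by fold rank. Over all features tested, the share that passed was 0% by fold rank, 0% by pileup rank, 0.00781% by peak length (1 of 12807), 0% by covered length and 0% for regions. At an unadjusted p under 0.05, 0 of the 10 genes and 0 of the 29 regions were found in any of these 5 fits, against 4.49% of promoters by fold rank, 2.39% by pileup rank, 3.58% by peak length, 2.89% of loci by covered length and 3.92% of regions. A count of 0 among so few genes does not show that the genotypes were alike.

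The promoter differences of the 10 genes by fold rank ran from -0.26 at Fosb to 0.16 at Egr1, with a median of 0.04 beside 0.05 over all 12807 promoters. Both ends moved when single libraries were left out. Without Nedd4L-cKO replicates 1, 2, 3 and 4 in turn, Fosb was at -0.12, -0.42, -0.06 and -0.46. Without Nedd4L-WT replicates 1, 2 and 3 in turn, it was at -0.42, -0.24 and -0.12. Egr1 was at 0.04 without Nedd4L-WT replicate 1. By fold rank, 6 genes were higher in Nedd4L-cKO and 4 lower. The lowest unadjusted p was that of Junb, with a difference of -0.22 (SE 0.129, limma adjusted p = 0.968) and a 95% interval of -0.51 to 0.07. By pileup rank the differences ran from -0.14 at Junb (SE 0.0854, limma adjusted p = 1.00) to 0.04 at Fosl2. The 95% intervals were narrower by pileup rank than by fold rank at all 10 genes, with -0.21 to 0.23 for Fos and -0.12 to 0.21 for Fosl2. By length, on the log2 scale, Egr1 had the lowest p, with -0.06 (SE 0.0386, limma adjusted p = 0.999). The widest length intervals belonged to genes with a joined peak, -1.16 to 1.94 for Fosb and -1.63 to 0.60 for Ier2.

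**Figure D5:**
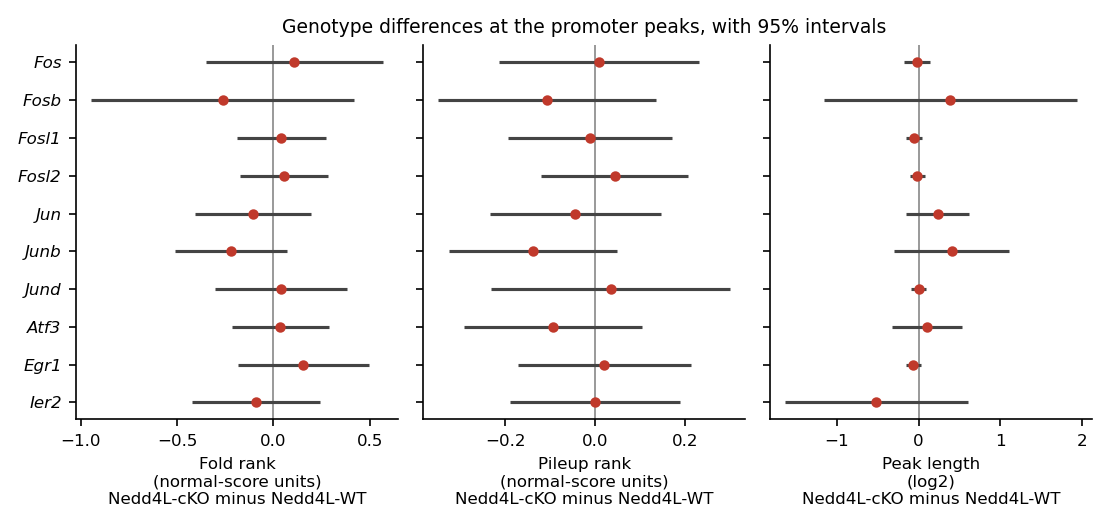
Difference between genotypes at each promoter peak, Nedd4L-cKO minus Nedd4L-WT, from limma on 4 and 3 libraries, by fold rank and pileup rank (normal-score units) and by peak length (log2). Points are differences and lines are 95% intervals, and every interval includes 0.

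The libraries of the genotypes did not overlap by fold at 0 of 10 genes (5.76% of all promoters), by pileup at 0 of 10 (3.61%) and by length at 3 of 10 (4.38%). The 3 were Jun and Junb, longer in Nedd4L-cKO, and Egr1, shorter in Nedd4L-cKO. None of these length differences passed the test over all promoters (limma adjusted p = 0.999 for each). Without Nedd4L-WT replicate 3, the library set apart by its lane mark, 0 of the 10 promoters passed by fold rank, pileup rank or length.

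Merged regions that were called in all libraries of 1 genotype and in none of the other numbered 0 of 41 at these loci, against 0.151% of all regions. The lowest unadjusted p of a region lower in Nedd4L-cKO was found at the shared promoter of Rnaseh2a and Prdx2, in the Junb window (-0.39, SE 0.224, limma adjusted p = 1.00), and next at the Fosl2 region 3.495 to 2.42 kb upstream (-0.27, SE 0.159, limma adjusted p = 1.00). Among those higher in Nedd4L-cKO, the lowest were the Ccdc85b promoter in the Fosl1 window (0.18, SE 0.149, limma adjusted p = 1.00) and the upstream region of Jund (0.20, SE 0.181, limma adjusted p = 1.00). The number of peaks and the covered length of each locus were also compared by two-sided exact permutation tests over the 35 assignments of 4 and 3 libraries, which cannot go below p = 0.0286. The lowest p was that of covered length at Fosl1. It was 3625 ± 204 bp in the 4 Nedd4L-cKO libraries and 3887 ± 70.5 bp in the 3 Nedd4L-WT libraries (mean ± SD, exact permutation p = 0.0857, not adjusted over 20 such tests).

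Genes of the same pathway were examined from 3 lists. Among 14 AP-1 relatives (other BATF, ATF, MAF and JDP2 genes), 12 had a promoter peak in all 7 libraries, Mafg in 5 and Batf in 0. Their median percentiles were 96.0 by pileup and 30.2 by fold, and 0 of the 12 combined a pileup at or above the 95th with a fold at or below the 10th percentile. Atf4, the activator of the amino acid response, was the highest by pileup at 99.2, with a fold percentile of 30.6. Of 28 other immediate early genes, 27 had a promoter peak in all 7 libraries and Egr4 in 6, with medians of 94.9 by pileup and 18.7 by fold. The combination was found in 6 of the 27 (22.2%), Egr2, Klf10, Myc, Dusp1, Zfp36 and Ccn1. Zfp36, which encodes an RNA-binding protein that destabilizes short-lived transcripts, had a pileup percentile of 99.9 and a fold percentile of 0.101, below that of Junb. Dusp1, a phosphatase of MAP kinases, had 99.3 and 1.78. Others did not show it, such as Nr4a1, an orphan nuclear receptor, with 77.4 and 51.4. Of 15 upstream regulators (MAP kinases, their kinases, ELK, CREB, MRTF and SRF), 14 had a promoter peak in all 7 libraries. Their medians were 94.4 by pileup and 83.6 by fold, and 0 of 14 had the combination. Srf had a promoter peak in 0 libraries. For Srf, as for Batf, this means no peak within 1 kb of the outer end of the RefSeq span, and starts elsewhere were not examined. Low fold was also found among the 9 MuSC markers, where 4 lay at or below the 10th percentile. Their medians were 87.1 by pileup and 17.5 by fold, and 1 of the 9, Cdh15, had the combination (98.1 and 0.979). No gene of the 3 lists passed the genotype test in either direction by fold rank, pileup rank or length (limma, adjusted over all 12807 promoters).

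Outside these lists, the promoters closest to the median of the 10 genes in fold, pileup and length percentile, by Euclidean distance over the medians of 7 libraries, were those of Cfl1 and Mus81, which share a peak (distance 0.968, fold 7.78, pileup 99.4), Zfp36l2 (4.30), Klf9 (4.48) and Plekhg2 (5.12).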

How the data were processed

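The genotype in the labels set the group of each library, and the titles its replicate number. The authors trimmed adapters with Trimmomatic 0.39, aligned to mm10 with BWA-MEM 0.7.17, kept alignments with a mapping quality above 30 and removed duplicates with Picard 2.26.3. Per the file headers, peaks were called in each library alone with MACS2 2.2.7.1 in broad mode, without a control. The deposited pileup is a signal (mean coverage of extended tags) that is not scaled to depth, and the deposited fold enrichment is a ratio to the local background. The deposited p-value and q-value are given as -log10, and the score deposited by the authors repeats the q-value.

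From these, the local background was computed as (pileup + 1) / fold - 1. Peaks overlapping by at least 1 bp were merged over libraries. Spans came from RefSeq on GRCm38.p6, and a TSS is the outer end of a span. Promoter ranks as normal scores, log2 lengths, log2 covered lengths and region ranks were fitted with limma 3.58.1 in R 4.3.3 (lmFit and eBayes, all 7 libraries, no covariate), tested on simulated data. Promoters and regions without a peak in every library were left out of the rank and length fits, which dropped no promoter of the 10 genes but 12 of their 41 regions. All 10 genes are named with their values, along with, at each locus, the region of highest fold outside the promoter among those called in all 7 libraries, the 2 regions with the lowest p in each direction and the 5 most similar promoters. The genes, lists and tests were chosen with earlier results of these data known.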

Additional observations from a re-analysis of the deposited data

Results flagged for a closer look

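Dixon's test at the 95% level was applied to the 4 Nedd4L-cKO libraries and not to Nedd4L-WT. In 9 of 40 sets of values, the highest or lowest of the 4 stood far from the other 3. Chance gives this in about 1 in 20 sets if the values are normally distributed, which was not tested. Several of these sets are not independent, since length and covered length share a peak. Promoter peak length was long in 1 library at Fosb (3397 bp in replicate 3, others 635 to 666 bp), Jun (3922 bp in replicate 4, others 2482 to 2619 bp), Junb (5896 bp in replicate 1, others 2516 to 2836 bp), Atf3 (2618 bp in replicate 3, others 1591 to 1749 bp) and Ier2 (3815 bp in replicate 4, others 1509 to 1652 bp), and short at Fosl2 (1684 bp in replicate 1, others 1736 to 1744 bp). At Fosb, Junb and Ier2 the long peak spanned a neighboring peak that other libraries had separately. The Ier2 peak was also long in Nedd4L-WT replicates 1 and 2 (3907 and 3925 bp). The covered length of the locus stood apart at Fosb (6344 bp in replicate 3, others 4860 to 5063 bp) and Jun (3922 bp in replicate 4, where the promoter peak is the only peak). The pileup percentile of Fos was lowest in replicate 2 (99.7, others 99.87 to 99.89).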

How the results depend on the processing

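None of the 10 promoters, their loci or their regions passed the limma threshold under any alternative run: a minimum -log10 q of 5, the 60000 strongest peaks of each library, peaks holding a narrow peak, other promoter windows or flanks, ranks by pileup, a covariate for log2 tags, the replicate block, and each library left out in turn. Promoters with a peak in all libraries stayed at 10, except 9 with a window of 500 bp and 9 when the peak had to cover the TSS base, both times without Jund, which could not be fitted with the window of 500 bp. Regions separating the genotypes numbered 0 to 1 with a library left out, the 1 being the Fosl2 region without Nedd4L-cKO replicate 4 (then 0.440% of all regions separated). The count of genes with high pileup and low fold, 7, became 8 with the minimum q (1.35% of all promoters) and 8 with the 60000 strongest peaks (1.18%), and 6 with the window of 500 bp (0.817%) and 6 with percentiles among promoter peaks alone (0.570%). These alternatives for that count were chosen after seeing the data.

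Fold rank differences kept their direction in 128 of 139 refits of the 10 promoters. Fos turned to -0.0037 under the replicate block, which gave the same differences as leaving out Nedd4L-cKO replicate 4. Fosl1 turned to -0.0175 and Atf3 to -0.0302 with the minimum q, and to -0.0232 and -0.0390 with peaks holding a narrow peak. Ier2 turned to 0.0917 with the window of 2.5 kb. With 1 library left out, values ranged from -0.0138 to 0.319 for Fos, from -0.0767 to 0.126 for Jund, from -0.0124 to 0.0744 for Atf3 and from -0.174 to 0.0312 for Ier2. The other 6 kept their direction, from -0.456 to -0.0594 for Fosb, from 0.0406 to 0.222 for Egr1, from -0.306 to -0.144 for Junb, from -0.172 to -0.0165 for Jun, from 0.0190 to 0.0725 for Fosl1 and from 0.0348 to 0.0717 for Fosl2. The cause was not tested.

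The labels do not state whether the replicate numbers pair the libraries. Deviations of same-numbered libraries correlated at -0.132, 0.00112 and -0.0921, and those of different-numbered libraries at -0.180 to 0.153. Whether libraries of the same number shared a preparation was not tested. The replicate block left the counts past the threshold at 0 in all 5 fits. Replicate number 4 occurs only in Nedd4L-cKO, so the block takes that library out of the genotype difference. It is therefore not a check separate from leaving that library out, and it leaves less from which to estimate the spread.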
